A study of Caenorhabditis elegans with 3 samples.

Results

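Wnt proteins are secreted signals that bind Frizzled receptors on target cells and, in the canonical branch, spare β-catenin from a destruction complex so that it can act with the DNA-binding protein TCF. In Caenorhabditis elegans they set the migration of neuroblasts, the polarity of the dividing seam and tail cells, the fates of vulval precursor cells and the outgrowth of axons. The worm also uses an asymmetry branch, in which separate β-catenins and a Nemo-like kinase adjust how much TCF stays in each daughter nucleus after a division.

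The genes described are the 5 Wnt ligands lin-44, egl-20, mom-2, cwn-1 and cwn-2, the Frizzled receptors mig-1, lin-17 and mom-5, and the effectors bar-1 (β-catenin) and pop-1 (TCF). They were picked by sequence name, and all 10 were found among the 20392 measured genes. RNA abundance was measured in whole animals of the wild-type strain N2 (Bristol), a self-fertile hermaphrodite laboratory strain, grown on OP50 bacteria at 25 °C and harvested at mid-L4, the 29 h time point. The series held 1 group of 3 libraries, which the submitters call independent, with no treatment and no second genotype, so no condition was compared. Values are TPM, a transcript level corrected for transcript length and scaled so that every library has the same total, so levels of different genes can be set side by side. TPM holds no read depth, so errors are the SD over the 3 libraries and the counting error behind each value is unknown.

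The labelled material was checked against marker genes. All 4 markers of body wall muscle, all 4 of pharynx, all 4 of intestine, all 5 of neurons and all 4 of germ line reached 1 TPM in every library, while 0 of 2 markers of male-specific neurons and 0 of 4 early embryonic genes did. Of the markers of anchor cell, vulva and distal tip cell, which are few cells in a whole worm, 3 of 5 did, and of those of hypodermis and seam 4 of 6. All 4 sperm markers and 2 of 3 markers of adult yolk also reached 1 TPM in every library. The libraries differed in the summed level of several marker lists. The 4 sperm markers summed to 465, 182 and 96.5 TPM in replicates 1, 2 and 3, the 3 yolk markers to 12.9, 8.76 and 4.20 TPM, and the 6 markers of hypodermis and seam, dominated by the cuticle collagens dpy-7 and rol-6, to 210, 136 and 62.3 TPM. Because whole worms were measured, fewer expressing cells and less RNA per cell cannot be told apart for any gene below.

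All 10 Wnt genes were detected, with at least 1 TPM in every library, a level that 61.1% of all measured genes reached. At a limit of 0.5 TPM, reached by 67.8% of genes, the count was again 10, and at 5 TPM, reached by 39.4%, it was 2 (mom-5 and cwn-1). The median over members of their mean log2(TPM + 1) was 2.62, beside a median of 2.12 over all measured genes. Medians taken in each library averaged 2.55, with an SD of 0.06. Their mean TPM ran from 1.85 for lin-44 to 13.6 for mom-5. The lowest member exceeded 40.8% and the highest 76.5% of measured genes, and the median of these percentiles was 56.6. Among genes averaging at least 1 TPM alone, the median percentile was 34.7, so the place of the members above or below the middle depends on whether genes with little or no RNA are counted. All 10 together summed to 53.4, 53.9 and 57.5 TPM in replicates 1, 2 and 3.

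**Figure D1:**
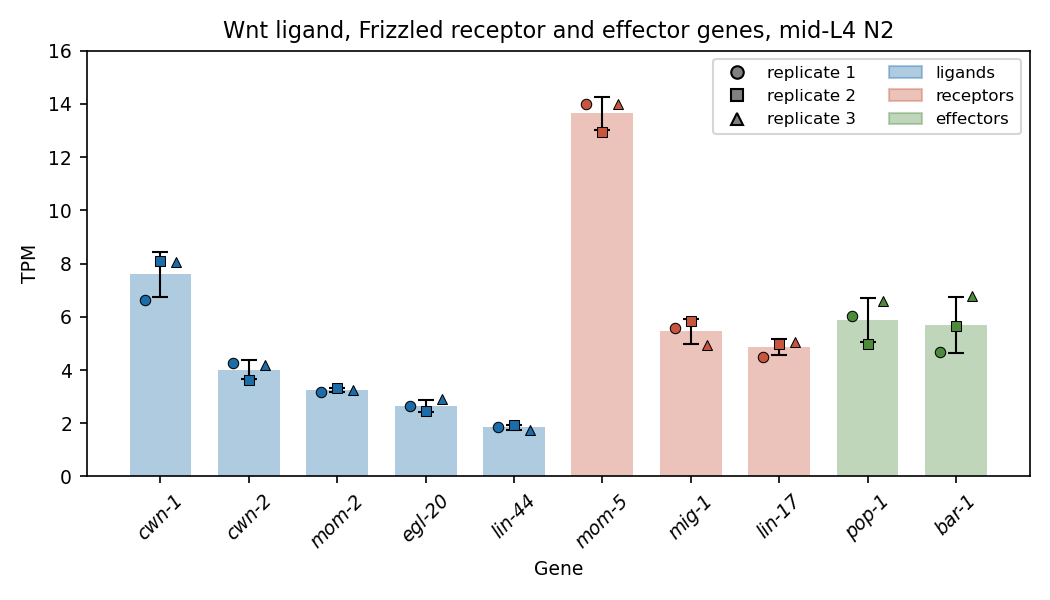
TPM (vertical axis, from 0) of each Wnt gene, grouped by role on the horizontal axis. Bars are means, error bars are the SD of 3 libraries and symbols are the single libraries. The receptor gene mom-5 stands highest at 13.6 TPM, cwn-1 leads the ligands at 7.60 TPM, and lin-44 is lowest at 1.85 TPM.

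Among the ligands, cwn-1 was the most abundant. CWN-1 is a Wnt with known roles in the migration and polarity of cells along the body axis, and its gene (K10B4.6, chromosome II, 130983 to 133598, WBcel235) has 2 annotated transcripts. It had 6.63, 8.11 and 8.07 TPM in replicates 1, 2 and 3, a mean of 7.60 ± 0.843 (SD, n = 3). Replicate 1 was the lowest, and its value still lay above every library of the other ligands. The gene held 35.8%, 41.7% and 40.01% of the summed ligand TPM in the 3 libraries.

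Next came cwn-2 (W01B6.1, chromosome IV, 10067816 to 10070251), a ligand known for neuronal migration and axon guidance in the anterior body. It had 4.25, 3.62 and 4.18 TPM, a mean of 4.01 ± 0.344 (SD, n = 3), with replicate 2 lowest. The ratio of cwn-1 to cwn-2 was 1.56, 2.24 and 1.93 in the 3 libraries. In the annotation the gene overlaps W01B6.3 on the opposite strand. The library kit keeps strand, but no source used here says whether reads were assigned by strand.

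The ligand gene mom-2 (F38E1.7, chromosome V, 8355988 to 8358185) acts in endoderm specification and spindle orientation in the embryo and, later, is one of the Wnts that orient vulval divisions. Its 3 libraries lay close together, at 3.17, 3.32 and 3.26 TPM, with a mean of 3.25 ± 0.0754 (SD, n = 3). The embryonic endoderm genes end-1 and end-3, set by the same signal in the embryo, averaged 0.0152 and 0.110 TPM in these larvae.

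The product of egl-20 (W08D2.1, chromosome IV, 9812357 to 9815532) is made by cells near the anus and directs the migration of the descendants of the left Q neuroblast. Its levels were 2.63, 2.45 and 2.90 TPM, a mean of 2.66 ± 0.226 (SD, n = 3), with replicate 3 highest. The lowest ligand, lin-44 (E01A2.3, chromosome I, 4126056 to 4129310), is known for its source in the tail hypodermis and for setting the polarity of tail cells. It had 1.86, 1.95 and 1.76 TPM, a mean of 1.85 ± 0.0944 (SD, n = 3). No library of lin-44 reached the lowest library of egl-20, and cwn-1 stood 3.56, 4.17 and 4.59 times as high as lin-44.

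The Frizzled receptors were led by mom-5 (T23D8.1, chromosome I, 9965574 to 9970037), which mediates the embryonic endoderm signal and acts in seam and vulval polarity. It had 14.01, 12.95 and 13.99 TPM, a mean of 13.6 ± 0.608 (SD, n = 3), with replicate 2 slightly lower than the other two. All its libraries lay above every library of each other member. In the annotation mom-5 overlaps tsp-7 on the opposite strand.

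The Frizzled gene mig-1 (Y34D9B.1, chromosome I, 948569 to 957456), known for its part in Q neuroblast migration, had 5.58, 5.84 and 4.93 TPM, a mean of 5.45 ± 0.473 (SD, n = 3). Its relative lin-17 (Y71F9B.5, chromosome I, 2706883 to 2717549), the receptor through which LIN-44 polarizes tail cells and which acts in vulval divisions, had 4.504, 4.976 and 5.065 TPM, a mean of 4.85 ± 0.301 (SD, n = 3). The ranges of these genes overlapped, and mig-1 was the higher in 2 of 3 libraries. Of the summed TPM of the 3 receptors, mom-5 held 57.0% ± 2.18, mig-1 22.8% ± 2.05 and lin-17 20.3% ± 1.35 (SD, n = 3).

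The remaining Frizzled gene of the worm, cfz-2, stood apart from these at 1.01, 1.08 and 1.06 TPM, just over the detection level. With it included, mom-5 held 55.8%, 52.1% and 55.9% of the Frizzled TPM, and mom-5 was 13.05 ± 0.958 times (SD, n = 3) as high as cfz-2. The ligands summed to 18.5, 19.4 and 20.2 TPM and the 3 receptors to 24.1, 23.8 and 24.0 TPM. Their ratio was 0.770, 0.818 and 0.841, so the summed ligand level lay below the summed receptor level in 3 of 3 libraries. Without cwn-1 this ratio was 0.492. Its direction rested on mom-5, since mig-1 and lin-17, with means of 5.45 and 4.85 TPM, lay together below the summed ligands.

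Of the effectors, pop-1 (W10C8.2, chromosome I, 2822243 to 2830311) encodes the TCF protein through which both branches of the pathway act on transcription. It had 6.04, 4.99 and 6.60 TPM, a mean of 5.88 ± 0.817 (SD, n = 3), with replicate 2 lowest. In the annotation its locus also holds a noncoding RNA and a small nucleolar RNA on the same strand. The gene bar-1 (C54D1.6, chromosome X, 7166005 to 7170625), the β-catenin of the canonical branch in vulval precursor cells and Q neuroblasts, had 4.68, 5.66 and 6.77 TPM, a mean of 5.70 ± 1.04 (SD, n = 3). It is the only X-linked member, and its annotated end overlaps pgp-10 on the opposite strand. The ranges of pop-1 and bar-1 overlapped, with a ratio of pop-1 to bar-1 of 1.29, 0.882 and 0.976.

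From high to low, the order of the 10 members by mean TPM was mom-5, cwn-1, pop-1, bar-1, mig-1, lin-17, cwn-2, mom-2, egl-20 and lin-44. The order and the comparisons use the same 3 libraries, so the pairs and their direction were set by the values compared. Of the 9 pairs of neighbours in this order, 6 had the same sign in all 3 libraries and ranges that did not overlap. The closest of these was cwn-1 over pop-1, where the lowest library of cwn-1 had 6.63 TPM and the highest of pop-1 had 6.60 TPM. The remaining 3 pairs, pop-1 and bar-1, bar-1 and mig-1, and mig-1 and lin-17, did not differ beyond their spread. Their mean differences on the log2(TPM + 1) scale were 0.04 ± 0.24, 0.05 ± 0.31 and 0.14 ± 0.15 (SD, n = 3). The widest step was that from mom-5 to cwn-1, at 0.77 ± 0.19 (SD, n = 3). An exact paired sign-flip permutation test (two-sided) on 3 libraries cannot give a p below 0.25, so no step could pass a threshold of 0.05. The 6 separated pairs had this smallest p in the exact permutation test (adjusted p = 0.375 over the 9 pairs). The 4 lowest members were all ligands.

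The members differed in how closely their libraries agreed. The coefficient of variation (SD over mean) ranged from 2.32% for mom-2 to 18.3% for bar-1, and lay below the median of detected genes, 12.1%, for 8 of 10 members. Of the 4456 genes within 2-fold of the mean level of mom-2, 2.20% had a smaller coefficient of variation. For lin-44 this share was 5.42% of 3671 genes and for mom-5 16.7% of 5021. It was 47.8% of 5514 for cwn-1, 53.9% of 5313 for pop-1 and 63.8% of 5311 for bar-1. Both effectors, bar-1 at 18.3% and pop-1 at 13.9%, had larger coefficients than each of the 8 ligand and receptor genes, among which cwn-1 was highest at 11.1%.

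**Figure D2:**
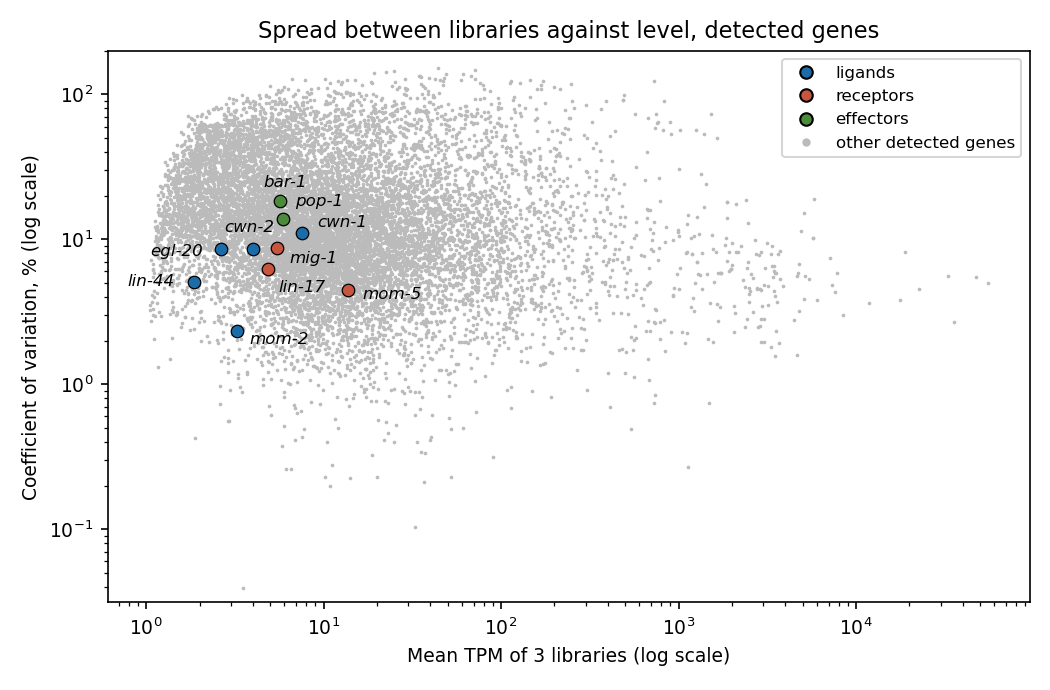
Coefficient of variation over the 3 libraries in percent (vertical axis, log scale) against mean TPM (horizontal axis, log scale) for detected genes, in grey, with the Wnt genes coloured by role. The ligand mom-2 lies low in the cloud at 2.32%, and bar-1 and pop-1 are the uppermost Wnt genes at 18.3% and 13.9%.

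None of the 10 members differed 2-fold or more between its highest and lowest library, beside 15.4% of the detected genes. With 10 genes, this count cannot be told apart from that share. The ratio of highest to lowest library was 1.05 for mom-2, 1.11 for lin-44, 1.32 for pop-1 and 1.45 for bar-1. Replicate 1 was the highest library for 2 members, replicate 2 for 4 and replicate 3 for 4. The sperm, yolk and hypodermal marker sums were highest in replicate 1 and lowest in replicate 3, while bar-1 was lowest in replicate 1 and highest in replicate 3. The fall of the hypodermal sum lay in dpy-7 and rol-6. In the same list elt-3 (8.04, 8.83 and 10.1 TPM) and nhr-25 (0.193, 0.322 and 0.695 TPM, below detection) rose, and elt-1 and nhr-73 followed neither order. Like bar-1, the summed markers of pharynx, body wall muscle and germ line were lowest in replicate 1 and highest in replicate 3. These sums were 180, 222 and 236 TPM, 2517, 2539 and 2581 TPM, and 106, 111 and 112 TPM. The rise of the muscle sum lay in pat-10 (1449, 1487 and 1557 TPM), while unc-54, myo-3 and unc-15 had the opposite order. In the germ line list glh-1 and pgl-1 rose, and him-3 and gld-1 fell. In the pharynx list pha-4 was lowest in replicate 2, and its other genes had the order of the sum. The intestine and neuron sums followed neither order. That of anchor cell, vulva and distal tip cell fell (11.9, 11.7 and 10.2 TPM). However, no gene of that list fell from each replicate to the next. Its largest part, cdh-3, had 6.24, 6.90 and 5.18 TPM, and lin-3 rose (2.26, 2.51 and 2.68 TPM). What part these differences between the libraries had in the level of bar-1 was not tested.

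**Figure D3:**
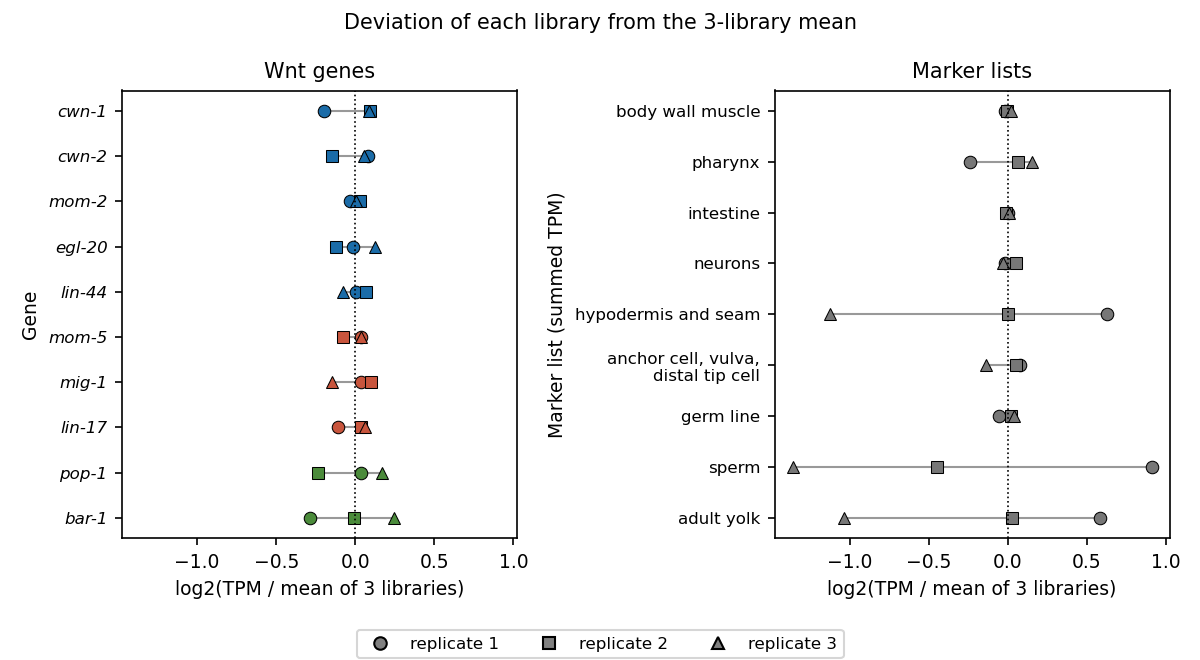
Deviation of each library from the mean of the 3 libraries, as log2 of the TPM ratio (horizontal axis), for each Wnt gene (left) and for the summed TPM of each marker list (right). Symbols are the libraries. Every Wnt gene spans less than the sperm markers, whose sums were 465, 182 and 96.5 TPM.

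The rest of the pathway was described from lists of 35 further genes, of which 33 were detected, again beside 61.1% of all genes. Their median of log2(TPM + 1) was 2.59, beside 2.62 for the 10 members and 2.12 for all genes. Of the 33 detected, 1 differed at least 2-fold between libraries, the kinase gene lit-1, beside 15.4% of all detected genes. The Hox gene egl-5, which was not detected, did so as well.

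Among genes for making and releasing Wnts, 5 of 6 were detected. The sorting nexin gene snx-3 and the retromer gene vps-35, both general parts of endosomal recycling that also return the Wnt carrier to the Golgi, were the highest, with 39.97, 37.59 and 28.85 TPM for snx-3 and a mean of 16.2 ± 0.958 TPM (SD, n = 3) for vps-35. The carrier itself, the Wntless gene mig-14, had 4.14, 4.90 and 5.14 TPM. The Porcupine gene mom-1, which adds the lipid to Wnts, was the lowest and missed the detection level in replicate 1, at 0.822, 1.14 and 1.35 TPM.

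The receptors outside the Frizzled family were higher than mig-1 and lin-17. The Ror receptor kinase gene cam-1 had 7.78, 7.82 and 7.56 TPM and the Ryk gene lin-18, which acts beside lin-17 in vulval polarity, had 6.84, 7.49 and 7.30 TPM. All libraries of these genes lay above all libraries of mig-1 and lin-17, and below those of mom-5. The inhibitors were the secreted Frizzled-related gene sfrp-1, with 6.34, 3.52 and 5.54 TPM, and plr-1, a membrane ubiquitin ligase that lowers receptors at the cell surface, with 2.12, 2.55 and 2.71 TPM. Replicate 2 was low for sfrp-1, whose highest library was 1.80 times its lowest.

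All 3 Dishevelled genes, which relay the signal from Frizzled inside the cell, were at similar levels. Their means were 8.54 ± 0.597 for dsh-1, 7.64 ± 0.481 for mig-5 and 6.57 ± 0.598 TPM for dsh-2 (SD, n = 3). In the destruction complex the casein kinase gene kin-19 was highest at 38.0, 42.7 and 40.2 TPM, a kinase with other substrates as well. The 2 Axin genes differed. The main Axin gene pry-1 had 4.767, 6.001 and 7.755 TPM, and axl-1, at 1.40, 2.11 and 2.43 TPM, was the lowest of the complex. The ratio of pry-1 to axl-1 was 3.41, 2.85 and 3.19. Both were lowest in replicate 1 and highest in replicate 3, as were bar-1 and the kinase gene gsk-3 (6.96, 9.82 and 10.5 TPM). The APC gene apr-1 had its highest value in replicate 1 (10.6, 9.80 and 8.57 TPM). Of all 35 pathway genes, 16 were highest in replicate 3, 13 in replicate 1 and 6 in replicate 2.

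Of the 4 β-catenin genes, hmp-2, whose protein works mainly in cell adhesion, was highest with 13.2, 12.0 and 11.7 TPM. Then followed wrm-1, at 6.969, 6.635 and 6.098 TPM, and bar-1, whose ranges overlapped. The coactivator sys-1, the partner of POP-1 in the asymmetry branch, was lowest at 2.60, 2.34 and 2.24 TPM. The RNA ratio of pop-1 to sys-1 was 2.33, 2.13 and 2.95, which says nothing about the proteins or about single cells. The ratio of hmp-2 to bar-1 was 2.83, 2.13 and 1.73.

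The asymmetry kinases held the most variable gene of the lists. The Nemo-like kinase gene lit-1, whose product with WRM-1 drives POP-1 out of the nucleus, had 13.4, 8.51 and 5.92 TPM, a ratio of 2.27 between replicates 1 and 3. Its upstream kinase gene mom-4 varied little, at 4.43, 4.84 and 4.96 TPM, and tap-1, which encodes a partner of MOM-4, had 9.80, 11.2 and 11.7 TPM. The summed sperm, yolk and hypodermal markers were also highest in replicate 1, the last through dpy-7 and rol-6, and their part in the level of lit-1 was not tested. Planar polarity genes were low, with means of 2.89 ± 0.770 for prkl-1, 1.71 ± 0.392 for vang-1 and 1.59 ± 0.101 TPM for fmi-1 (SD, n = 3).

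Of 7 genes known as Wnt targets in the worm, 6 were detected and all averaged below 4 TPM. The Hox gene mab-5, which EGL-20 switches on in the left Q neuroblast through BAR-1, was the highest with 2.97, 4.06 and 4.11 TPM. The posterior Hox gene egl-5 was lowest, with 0.490, 0.940 and 1.09 TPM, and reached 1 TPM in replicate 3 alone. The vulval Hox gene lin-39 had 2.59, 2.43 and 2.29 TPM. The neighbouring GATA factor genes egl-18 and elt-6, which act in seam and vulval cells and lie 136 bases apart on chromosome IV, had nearly equal means of 2.90 ± 0.422 and 2.90 ± 0.124 TPM (SD, n = 3).

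**Figure D4:**
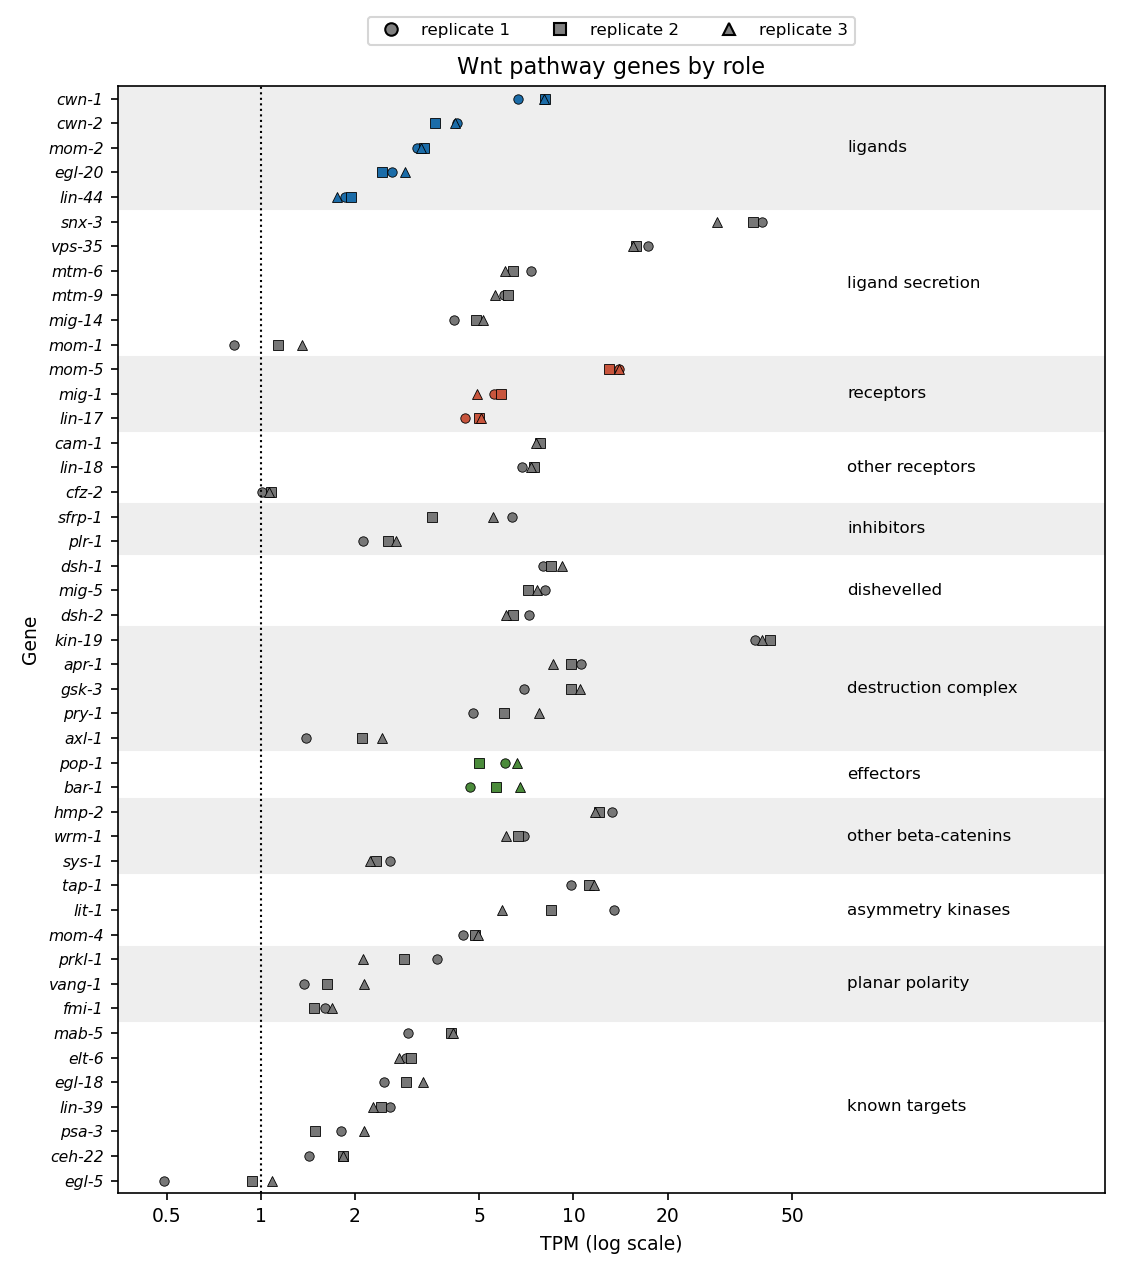
TPM (horizontal axis, log scale) of the members, in colour, and of 35 further pathway genes, in grey, by role. Symbols are the 3 libraries and the dotted line is the detection level of 1 TPM. Only mom-1 and egl-5 have a library under that line, and lit-1 shows the widest span of the plot with 13.4 against 5.92 TPM.

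By position, 5 of the 10 members lie on chromosome I (pop-1, lin-44, mig-1, lin-17 and mom-5), beside 14.2% of the measured genes with a matched name. This includes all 3 receptor genes among the members, while the remaining Frizzled gene cfz-2 lies on chromosome V. Each member's 3 values were its own, and 0 of 10 shared them with another gene. The shortest annotated transcript of a member was that of cwn-1 with 1322 nt and the longest that of bar-1 with 2592 nt.

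Genes nearest in level over the 3 libraries were sought for the highest member of each role, by the root-mean-square difference in log2(TPM + 1). For mom-5 the nearest were him-17, a gene of the germ line (difference 0.0149), D1086.12 (0.0205) and Y43H11AL.1 (0.0250). The nearest to cwn-1 were ZK616.2 (0.0163), math-20 (0.0174) and Y37H9A.1 (0.0241), and to pop-1 intk-1 (0.0334), T07F12.4 (0.0377) and Y55D5A.4 (0.0421). Within a difference of 0.1 lay 168 genes for mom-5, 106 for cwn-1 and 52 for pop-1, so likeness over 3 libraries of 1 condition singles out no gene.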

How the data were processed

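Per the labels' protocols, Trizol was used for RNA extraction with DNase treatment afterwards, and strand-specific TruSeq libraries of total RNA followed depletion of ribosomal RNA by Ribo-Zero Gold. The authors deposited a TPM value per gene and library. The tool was kallisto, per the submitters' processing notes. Its version, index, annotation, strand setting and summing to genes are not given in the sources used here, and the length correction makes each value depend on the transcript models. Each library summed to 1000000 TPM. The authors' mean column equalled the mean of the 3 columns within 6.67e-06 and was not used further.

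Sequence names were matched to RefSeq locus tags (20113 of 20392) and all 90 listed genes were found. Coordinates of the members and of their transcripts are from Ensembl release 115 of WBcel235, and the gap between egl-18 and elt-6 is from the RefSeq table of WBcel235. The authors' build may differ. Levels used log2(TPM + 1), with a pseudocount of 1, and detection was 1 TPM in all libraries. Neighbours in level were compared with an exact paired sign-flip permutation test, two-sided, with Benjamini-Hochberg adjustment. The replicate spread may be technical in part. The members and lists were chosen with earlier results of these data known. Named were all members, the highest and lowest of each pathway list and every gene of lists of up to 3. The 3 genes nearest in level to the top member of each role were named as well. A few other pathway genes were chosen after their values were seen (vps-35, mig-14, pry-1, gsk-3, apr-1, lin-39, egl-18 and elt-6). So were the marker genes end-1, end-3, dpy-7, rol-6, elt-1, elt-3, nhr-25 and nhr-73. The same holds for the marker genes unc-54, myo-3, unc-15, pat-10, glh-1, pgl-1, him-3, gld-1, pha-4, cdh-3 and lin-3. Alternatives were other pseudocounts (0.1 and 5), detection limits (0.5 and 5 TPM), median-of-ratios rescaling, other summaries and leaving out each replicate. Scripts used Python 3.11.15, numpy 2.4.6, pandas 2.3.3 and matplotlib 3.10.9 and were tested on simulated data.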

Additional observations from a re-analysis of the deposited data

How the results depend on the processing

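A detection limit of 5 TPM was met by mom-5 and cwn-1, 2 of 10 members, and by 16 of 35 pathway genes, beside 39.4% of all genes. At 0.5 TPM all 10 members and 34 pathway genes were detected. The median log2 level of the members was 2.39 with a pseudocount of 0.1, 3.34 with 5 and 2.55 as a mean over members. The median percentile was 34.7 when genes averaging under 1 TPM were left out of the ranking. The ratio of ligands to receptors was 0.594 from role medians. Its value of 0.492 without cwn-1 could only be lower, since a ligand was left out, so it does not test the direction. The direction of the ratio of sums rests on mom-5. The receptors without mom-5 are mig-1 and lin-17, with means of 5.45 and 4.85 TPM beside 19.4 TPM for the summed ligands. Leaving out each replicate gave a range of -0.092 to 0.14 for pop-1 over bar-1 and of -0.13 to 0.18 for bar-1 over mig-1, both with a change of sign, on the log2 scale. The first turned without replicate 1 (-0.092) and the second without replicate 3 (-0.13), so the order of these 3 genes is not fixed. The other 7 steps kept their sign. The 40 alternative means of members, from rescaling and leaving out replicates, lay at most 1.10 times from the reported value. All lay within 1 SD, but leaving out 1 of 3 replicates cannot move a mean by 1 SD. The rescaling factors were 1.003, 0.999 and 1.010, so rescaling could change little. Median-of-ratios rescaling changed no direction. Rescaling of percentiles, ratios, pathway counts and steps, and leaving out replicates for steps and 2-fold counts, were chosen after seeing the data. No replicate block between groups could be fitted because there is 1 group. Depth is unknown, so the counting error of the low genes cannot be given.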
